A study of Arabidopsis thaliana with 6 samples.

Results

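The 44 nuclear genes described here code for the light-harvesting antenna of photosystems I and II and for the nuclear-encoded subunits of both photosystems. They were taken by their locus names from a table of 36796 Arabidopsis genes as the genes of these complexes, and comprise 21 antenna genes (6 *LHCA* genes of photosystem I, 9 *LHCB1*, *LHCB2* and *LHCB3* genes of the major antenna of photosystem II, and 6 *LHCB4* to *LHCB7* genes of its minor antenna) and 23 subunit genes (12 of photosystem I and 11 of photosystem II). The set was chosen with earlier results of these data known. Transcript levels in 30 of the 44 were lower in *ref4-3* than in wild-type plants, and none was higher, where 11.9% of all genes tested were lower. By the median of each class the decrease was largest in the major antenna of photosystem II, though whether the classes differ was not tested. The largest decrease of a single gene was that of *LHCB1.4*, 4.77-fold. *PSBS*, which acts in the dissipation of excess light, and both PSBO genes did not pass the test.

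Photosystems are pigment-protein complexes of the thylakoid membrane that use light to drive electrons from water to ferredoxin. Antenna proteins bind most of the leaf's chlorophyll and pass the absorbed energy to the reaction centers, whose core proteins are made in the chloroplast while the antenna and many peripheral subunits are made from nuclear genes and imported. Antenna and subunit transcripts are among the most abundant messages of a green leaf, and several of them come from families of near-identical gene copies.

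RNA was measured in whole rosettes of 21-day-old Arabidopsis plants of the Col-0 ecotype that had not bolted, either wild type or *ref4-3*, a mutant that carries a semidominant point mutation in *MED5b*, a subunit in the tail of the Mediator complex that links transcription factors to RNA polymerase II. There were 3 biological replicates per genotype, and each library was made from the shoots of 5 plants from individual pots. Seeds sown on soil were kept cold in the dark for 3 days. The plants then grew at 22°C with 16 h of light at 150 μE, supplemented with far-red light, and 8 h of dark. They were harvested 6 h after the lights came on. The comparison bears on how transcript levels are altered in *ref4-3* plants, and since the mutation is a single base change, counts per gene cannot show which library carries it.

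Total counts per library ranged from 26060005 to 32879414, and 3 counts, taken as the smallest detectable signal, corresponded to 0.0872 to 0.124 counts per 1000000 (CPM). CPM values were scaled with TMM factors, which correct library totals for the share taken by a few abundant genes. These factors lay between 0.875 and 0.961 in wild-type and between 1.05 and 1.12 in *ref4-3* plants. Differences are given as log2 fold changes of *ref4-3* over wild-type plants from edgeR's quasi-likelihood test, with p-values adjusted over 23050 genes tested, and a gene is said to have fallen or risen where the adjusted p-value was under 0.05. In a bulk rosette, fewer cells of a type and less RNA per cell cannot be told apart. Values in triplets are in the order of replicates 1, 2 and 3.

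All 44 genes had enough counts to be tested. Of these, 30 fell and 0 rose in *ref4-3* plants, where 11.9% of all genes tested fell and 8.52% rose. The members were chosen with earlier results of these data known, which limits this comparison. No member was higher at an unadjusted p-value under 0.05 either, and 0 were higher by the edgeR exact test, DESeq2 or limma-voom. A fall of more than 2-fold was seen in 16 members, against 5.24% of all genes, and a rise of more than 2-fold in 0, against 4.48%. The 3 *ref4-3* libraries lay below all 3 wild-type libraries for 35 members, against 22.7% of all genes, and the genotypes overlapped for the other 9. The median log2 fold change over the members was -0.84 (range -2.25 to 0.30), while that over all genes tested was 0.01. Where the mean over libraries reached 300 CPM, 29 of 39 members fell (74.4%), as did 86 of the 354 other genes (24.3%).

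The count of members that fell depended on single libraries. It was 17 without *ref4-3* replicate 2, where 4.3% of all genes fell, and 11 without *ref4-3* replicate 3, where 2.33% of all genes fell. Leaving out any of the other 4 libraries gave 21 to 32. No called member's log2 fold change moved by more than 0.38 when 1 library was left out, and 11 members kept their call under all 16 alternatives: *LHCA3*, *LHCA4*, *LHCB1.2*, *LHCB1.4*, *LHCB3*, *LHCB5*, *LHCB6*, *PSAN*, *PSBQ1*, *PSBQ2* and *PSBW*. With library totals in place of TMM factors, 23 members fell, the median over all genes was 0.26, and the members' median was -0.86 relative to it. That scaling called 1518 of all genes lower and 4342 higher, against 2737 and 1964 with TMM.

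**Figure D1:**
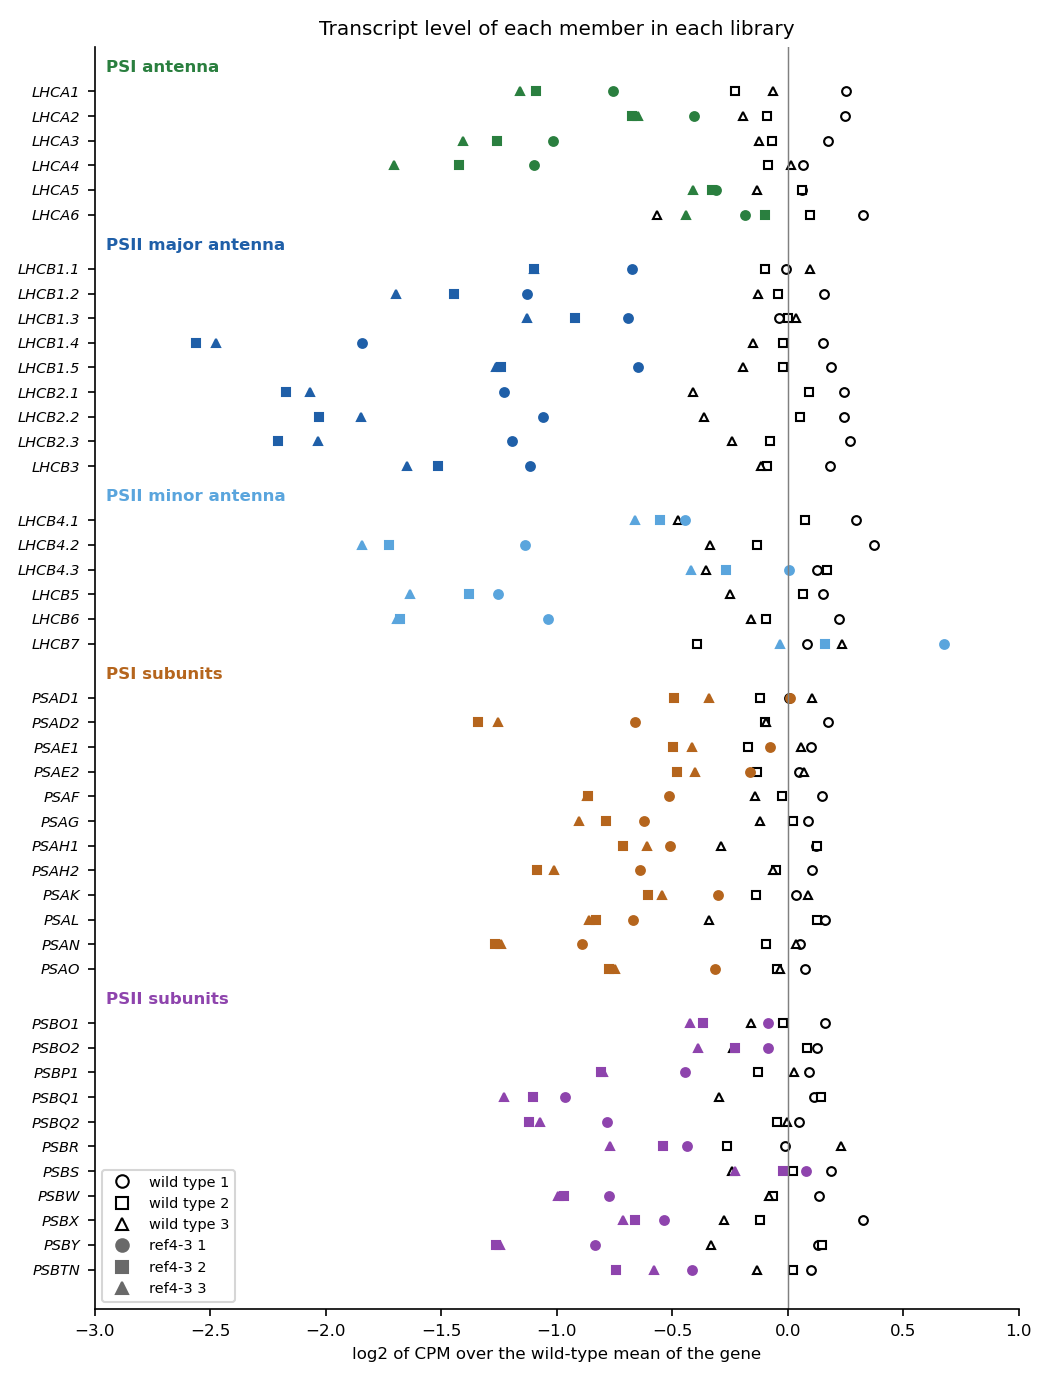
Level of each of the 44 genes in each library, as log2 of its CPM over the mean of the 3 wild-type libraries (the vertical line at 0); open symbols are wild-type and filled symbols ref4-3 libraries, with 1 symbol shape per replicate. The filled symbols of LHCB1.4 lie farthest to the left, and ref4-3 replicate 1 (filled circles) is the highest of its genotype in 43 of 44 genes.

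Within a genotype, the same library tended to be highest across these genes. Replicate 1 was the highest of the 3 *ref4-3* libraries for 43 of 44 members, and replicate 1 was the highest of the 3 wild-type libraries for 33. The median coefficient of variation was 11.5% in wild-type and 15% in *ref4-3* plants. What sets these libraries apart within their genotype was not tested.

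As a share of all counts, the 44 genes made up 16.0, 13.1 and 13.4% of the wild-type libraries and 9.95, 8.45 and 7.81% of the *ref4-3* libraries. This is 14.2 ± 1.62% against 8.74 ± 1.1% (mean ± SD, n = 3). Antenna genes accounted for 10.05 ± 1.2% in wild-type and 5.54 ± 0.80% in *ref4-3* plants, and subunit genes for 4.11 ± 0.451% and 3.20 ± 0.299%. The shares did not overlap between genotypes for either class. Counts on antenna genes were 2.47, 2.48 and 2.37 times those on subunit genes in wild-type plants and 1.81, 1.74 and 1.63 times in *ref4-3* plants, a ratio within each library that needs no scaling between libraries, and every *ref4-3* library was below every wild-type library.

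**Figure D2:**
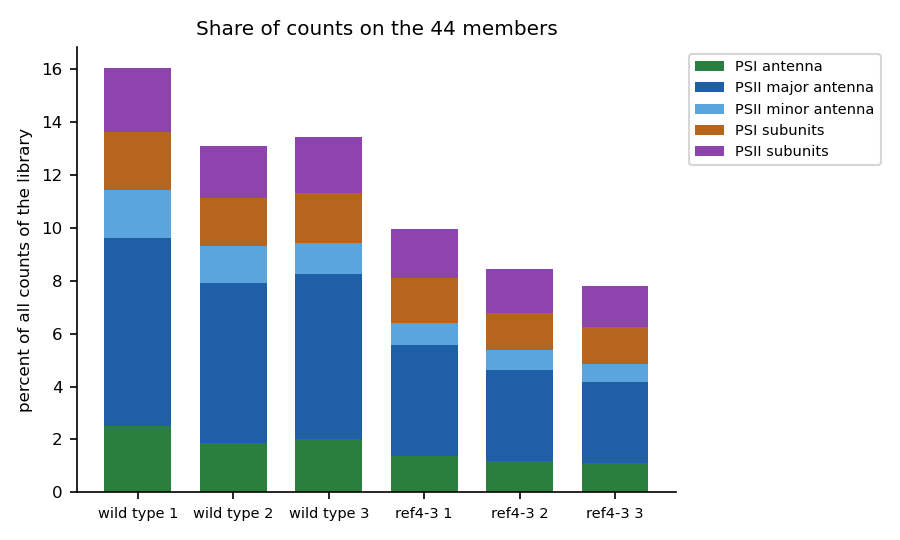
Percent of all counts of each library that fell on the 44 genes, stacked by antenna type and subunit class. The bars reach 13.1 to 16.0% in the wild-type libraries and 7.81 to 9.95% in the ref4-3 libraries, and the band of the major antenna of photosystem II is the widest in each.

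All 9 genes of the major antenna of photosystem II fell, with a median log2 fold change of -1.41 and 7 of them past 2-fold. Over all genes tested, 11.9% fell, and 5.24% fell past 2-fold. *LHCB1*, *LHCB2* and *LHCB3* (AT5G54270) proteins assemble as trimers that form the most abundant chlorophyll-binding complex of the leaf. The 5 *LHCB1* genes together reached 64161, 60861 and 60215 CPM in wild-type and 35818, 27937 and 25450.1 CPM in *ref4-3* plants. *LHCB1.3* (AT1G29930, chr1:10477885-10479114, plus strand, 1 exon) had the highest level of all members per length, 23931 CPM per kilobase of exon in wild-type and 12804 in *ref4-3* plants. Its CPM were 28696, 29449.5 and 30160.2 CPM in wild-type and 18217, 15555 and 13475 CPM in *ref4-3* plants (log2 fold change -0.90, SE 0.18, edgeR adjusted p = 0.0157).

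*LHCB1.1* (AT1G29920) and *LHCB1.2* (AT1G29910) lie beside *LHCB1.3* on chromosome 1. *LHCB1.1* was at 7248, 6819 and 7799 CPM in wild-type and 4565, 3402 and 3407 CPM in *ref4-3* plants (log2 fold change -0.94, SE 0.17, edgeR adjusted p = 0.0133). Levels of *LHCB1.2* were 7262, 6314 and 5948 CPM in wild-type and 2979, 2389 and 2007 CPM in *ref4-3* plants (log2 fold change -1.40, SE 0.19, edgeR adjusted p = 0.00565). No *ref4-3* library reached the lowest wild-type library for any of these genes, and within the cluster the fitted fall was 1.87-fold for *LHCB1.3*, 1.92-fold for *LHCB1.1* and 2.65-fold for *LHCB1.2*. *LHCB1.1* shares runs of up to 119 identical bases with *LHCB1.3* and 116 with *LHCB1.2*, and how reads that match several places were counted is not given in the sources used here, so the split between these copies is uncertain.

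*LHCB1.4* (AT2G34430) and *LHCB1.5* (AT2G34420) lie head to head on chromosome 2, at chr2:14524607-14525918 (plus strand) and chr2:14522524-14523568 (minus strand), each as 1 exon. *LHCB1.4* was at 5456, 4836 and 4412 CPM in wild-type and 1368, 830.4 and 883 CPM in *ref4-3* plants (log2 fold change -2.25, SE 0.23, edgeR adjusted p = 0.00222), the largest fall of the 44 genes. *LHCB1.5* was at 15499, 13442 and 11895 CPM in wild-type and 8689, 5761 and 5679.7 CPM in *ref4-3* plants (log2 fold change -1.02, SE 0.22, edgeR adjusted p = 0.0206). Both pairs of groups were separate, with *ref4-3* replicate 1 well above the other *ref4-3* libraries. *LHCB1.4* and *LHCB1.5* share a run of 122 identical bases, so their separate values are uncertain. The 150 bases before the annotated start of each gene are shown because the neighbors fell to different extents. They are from the TAIR10.1 assembly with the start from RefSeq, chr2:14524457-14524606 (plus strand) and chr2:14523569-14523718 (minus strand), 5′ to 3′ toward the gene, with matches to the motifs described with the promoters of the whole set in capitals:
LHCB1.4: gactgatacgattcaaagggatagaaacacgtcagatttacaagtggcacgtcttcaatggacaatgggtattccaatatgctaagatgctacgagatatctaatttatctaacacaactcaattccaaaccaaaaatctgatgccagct
LHCB1.5: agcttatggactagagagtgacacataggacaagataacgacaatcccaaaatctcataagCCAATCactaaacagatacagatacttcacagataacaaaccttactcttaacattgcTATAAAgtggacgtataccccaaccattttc
The window of *LHCB1.5* holds CCAATC 89 bases and TATAAA 31 bases before the start, and the window of *LHCB1.4* holds none of the motifs searched. Transcripts of *LHCB1.4* were 8.50, 7.95 and 7.33% in wild-type and 3.82, 2.97 and 3.47% in *ref4-3* plants of the summed *LHCB1* counts. The span of *LHCB1.5* is wholly covered by a pair of genes annotated on the opposite strand, one of which, the long noncoding RNA AT2G08665, had 207 to 528 counts, while *LHCB1.5* had 167930 to 488426. The library kit was directional, but the strand setting of the counting is not given in the sources used here.

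The 3 *LHCB2* genes code for a form of the trimer protein that is phosphorylated in state transitions, in which antenna moves between the photosystems. *LHCB2.1* (AT2G05100) was at 1708, 1537 and 1085 CPM in wild-type and 615, 321 and 344 CPM in *ref4-3* plants (log2 fold change -1.76, SE 0.30, edgeR adjusted p = 0.00997), and *LHCB2.2* (AT2G05070) was at 1473, 1289.6 and 967 CPM in wild-type and 597, 305 and 345 CPM in *ref4-3* plants (log2 fold change -1.58, SE 0.29, edgeR adjusted p = 0.0125). *LHCB2.3* (AT3G27690) was lower in level, at 525, 413 and 369 CPM in wild-type and 191, 94.5 and 107 CPM in *ref4-3* plants (log2 fold change -1.74, SE 0.29, edgeR adjusted p = 0.00944). In all 3 genes *ref4-3* replicates 2 and 3 lay far below replicate 1, and wild-type replicate 3 was the lowest of its genotype. *LHCB2.1* and *LHCB2.2* are 94.3% identical over 1035 bases, with a run of 152 identical bases, so their separate values are uncertain.

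*LHCB3*, which codes for a protein found in some of the trimers, was at 5953, 4932 and 4845 CPM in wild-type and 2422, 1835 and 1673 CPM in *ref4-3* plants (log2 fold change -1.41, SE 0.19, edgeR adjusted p = 0.00558), with no overlap. Without *ref4-3* replicate 3, 6 of the 9 major antenna genes lost the call (*LHCB1.1*, *LHCB1.3*, *LHCB1.5*, *LHCB2.1*, *LHCB2.2* and *LHCB2.3*, edgeR adjusted p = 0.0536 to 0.0864). Without *ref4-3* replicate 2, 3 did (*LHCB1.1*, *LHCB1.3* and *LHCB1.5*, 0.0553 to 0.0775), and without wild-type replicate 2, *LHCB1.3* and *LHCB1.5* did (0.0744 and 0.0607).

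Among the 6 minor antenna genes of photosystem II, 3 fell and 3 did not pass the test (median log2 fold change -0.98), where 11.9% of all genes tested fell. The *LHCB4*, *LHCB5* and *LHCB6* proteins are monomers that sit between the trimers and the photosystem II core. *LHCB5* (AT4G10340), which codes for CP26, was at 6962, 6574 and 5278 CPM in wild-type and 2630.4, 2411 and 2022 CPM in *ref4-3* plants (log2 fold change -1.41, SE 0.18, edgeR adjusted p = 0.00464). *LHCB6* (AT1G15820), which codes for CP24, was at 4577, 3674 and 3508 CPM in wild-type and 1911, 1223 and 1214 CPM in *ref4-3* plants (log2 fold change -1.44, SE 0.23, edgeR adjusted p = 0.00828). Both fell more than 2-fold with no overlap between genotypes. *LHCB7* (AT1G76570), a member of low level, was at 15.3, 11.0 and 17.0 CPM in wild-type and 23.0, 16.1 and 14.1 CPM in *ref4-3* plants (log2 fold change 0.30, SE 0.23, edgeR adjusted p = 0.363), the only member with a positive log2 fold change, and its libraries overlapped.

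CP29 is encoded by 3 genes whose values differed. *LHCB4.1* (AT5G01530, chr5:208866-210548, plus strand, 2 exons) was at 4429.9, 3804 and 2601 CPM in wild-type and 2652, 2459.9 and 2283 CPM in *ref4-3* plants (log2 fold change -0.55, SE 0.21, edgeR adjusted p = 0.0998), and *ref4-3* replicate 1 lay above wild-type replicate 3. *LHCB4.2* (AT3G08940, chr3:2717557-2718923, plus strand, 1 exon) was at 2554, 1796 and 1562 CPM in wild-type and 896, 595 and 549.5 CPM in *ref4-3* plants (log2 fold change -1.53, SE 0.26, edgeR adjusted p = 0.0101), with no overlap. *LHCB4.3* (AT2G40100) was at 55.6, 57.3 and 39.9 CPM in wild-type and 51.2, 42.3 and 38.1 CPM in *ref4-3* plants (log2 fold change -0.22, SE 0.18, edgeR adjusted p = 0.392), with overlap. Of the summed *LHCB4* counts, *LHCB4.2* took 36.3, 31.8 and 37.2% in wild-type and 24.9, 19.2 and 19.1% in *ref4-3* plants. Without *ref4-3* replicate 3, *LHCB4.2* lost its call (edgeR adjusted p = 0.0543), and without wild-type replicate 3, *LHCB4.1* gained one (log2 fold change -0.78, 0.0257). With library totals in place of TMM factors the log2 fold change of *LHCB4.3* was 0.03. The 150 bases before the starts of *LHCB4.1* and *LHCB4.2*, chr5:208716-208865 (plus strand) and chr3:2717407-2717556 (plus strand) of TAIR10.1, are shown because only the second gene passed the test; capitals mark motif matches:
LHCB4.1: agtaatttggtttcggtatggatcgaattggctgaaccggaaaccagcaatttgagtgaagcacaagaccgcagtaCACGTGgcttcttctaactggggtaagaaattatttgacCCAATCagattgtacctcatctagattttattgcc
LHCB4.2: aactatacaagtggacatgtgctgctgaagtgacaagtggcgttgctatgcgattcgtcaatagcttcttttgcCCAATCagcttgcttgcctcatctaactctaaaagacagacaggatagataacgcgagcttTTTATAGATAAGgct
Both hold CCAATC, 35 bases before the start of *LHCB4.1* and 76 bases before that of *LHCB4.2*. *LHCB4.1* also holds CACGTG 74 bases before its start, and *LHCB4.2* holds GATAAG 9 bases before and, on the other strand, TATAAA 15 bases before its start.

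Of the 6 *LHCA* genes of photosystem I, 3 fell (median log2 fold change -0.78), where 11.9% of all genes tested fell. *LHCA1* to *LHCA4* (AT3G47470) proteins form the crescent of antenna bound to 1 side of photosystem I. *LHCA4* was at 8014, 7220.1 and 7736 CPM in wild-type and 3580.3, 2857 and 2349 CPM in *ref4-3* plants (log2 fold change -1.39, SE 0.19, edgeR adjusted p = 0.00576), and *LHCA3* (AT1G61520) at 5439.9, 4605 and 4432 CPM in wild-type and 2389.8, 2017 and 1822 CPM in *ref4-3* plants (log2 fold change -1.22, SE 0.17, edgeR adjusted p = 0.00586). *LHCA1* (AT3G54890) was at 6818, 4883 and 5472 CPM in wild-type and 3394, 2693 and 2560.4 CPM in *ref4-3* plants (log2 fold change -0.99, SE 0.19, edgeR adjusted p = 0.0151). These genes were separate between genotypes, and *LHCA1* lost its call without *ref4-3* replicate 2 or 3 (edgeR adjusted p = 0.059 and 0.0701). *LHCA2* (AT3G61470) had a log2 fold change of -0.57 (SE 0.17, edgeR adjusted p = 0.0554) with separate groups, and passed the test under 6 of the 16 alternatives. *LHCA5* (AT1G45474) and *LHCA6* (AT1G19150), whose proteins link photosystem I to the NDH complex, were at 111 and 69.4 CPM on average in wild-type plants and had log2 fold changes of -0.35 and -0.23, neither past the test, though *LHCA5* passed by DESeq2 and without wild-type replicate 3 (adjusted p = 0.0354 and 0.0379). With library totals in place of TMM factors that of *LHCA6* was 0.01.

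**Figure D3:**
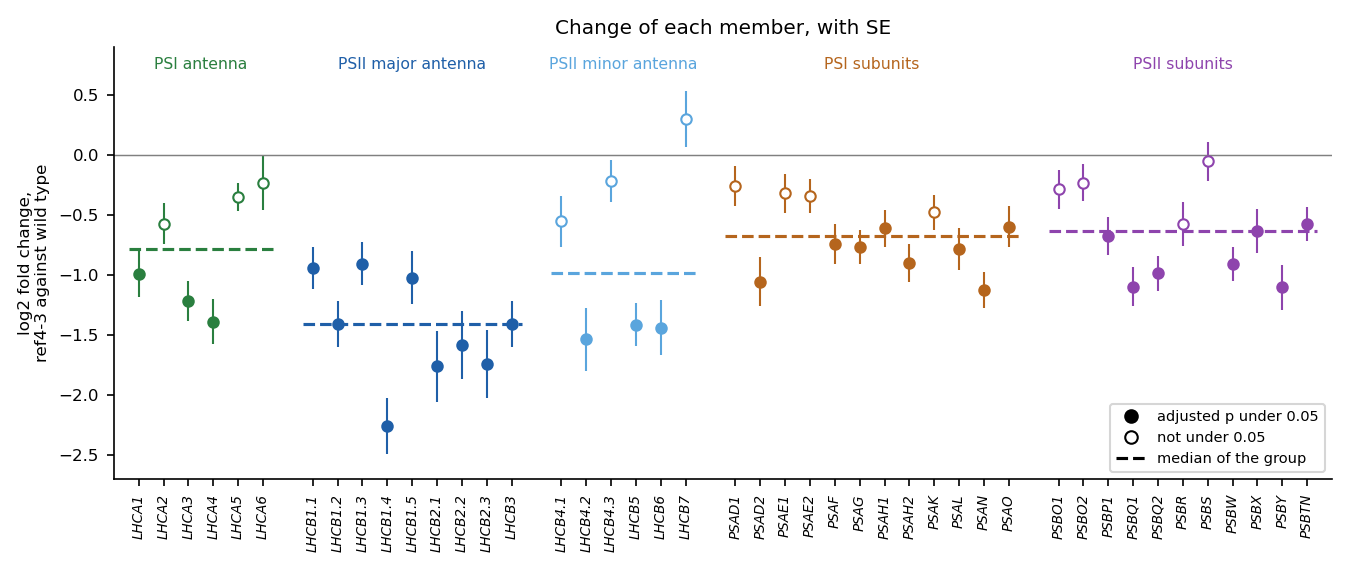
Log2 fold change of each gene, ref4-3 against wild-type plants, with bars of 1 SE, grouped by antenna type and subunit class; filled points have an edgeR adjusted p under 0.05 and dashed lines are the medians of the groups. The medians are -0.78, -1.41, -0.98, -0.67 and -0.63 from left to right, and LHCB7 is the only point above 0.

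The median change lay closer to 0 in subunit genes than in antenna genes. Over all genes tested, 11.9% fell, and 5.24% fell past 2-fold. Of the 23 subunit genes, 15 fell, 4 of them past 2-fold, with a median log2 fold change of -0.63. Of the 21 antenna genes, 15 fell, 12 of them past 2-fold, with a median of -1.22. By photosystem, 11 of 18 genes of photosystem I fell (median -0.67) and 19 of 26 genes of photosystem II (median -0.96). The subunit medians alone were -0.67 for photosystem I and -0.63 for photosystem II. Whether the classes differ was not tested, since the genes are not replicates of a class. The minor antenna genes *LHCB4.2*, *LHCB5* and *LHCB6* (-1.53, -1.41 and -1.44) fell more than *LHCB1.1*, *LHCB1.3* and *LHCB1.5* (-0.94, -0.90 and -1.02). They fell less than *LHCB1.4* (-2.25) and the *LHCB2* genes (-1.58 to -1.76). The medians outside the major antenna include the low-level genes *LHCB4.3*, *LHCB7*, *LHCA5* and *LHCA6*, which did not pass the test.

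In photosystem I, 8 of 12 subunit genes fell, where 11.9% of all genes tested fell. PSAD and PSAE proteins form the ferredoxin docking site on the stromal side, and each is encoded by a pair of genes. *PSAD1* (AT4G02770) was at 2058, 1886 and 2204 CPM in wild-type and 2067, 1459 and 1618 CPM in *ref4-3* plants (log2 fold change -0.26, SE 0.17, edgeR adjusted p = 0.293), with *ref4-3* replicate 1 inside the wild-type range. *PSAD2* (AT1G03130) was at 895, 741 and 742 CPM in wild-type and 502, 313 and 332 CPM in *ref4-3* plants (log2 fold change -1.05, SE 0.21, edgeR adjusted p = 0.0158), with no overlap. *PSAE1* (AT4G28750) was at 2146, 1773 and 2079.9 CPM in wild-type and 1896, 1415 and 1498 CPM in *ref4-3* plants (log2 fold change -0.32, SE 0.17, edgeR adjusted p = 0.195), with overlap. *PSAE2* (AT2G20260) was at 640.1, 564 and 649.7 CPM in wild-type and 552, 444 and 467 CPM in *ref4-3* plants (log2 fold change -0.34, SE 0.14, edgeR adjusted p = 0.117), with *ref4-3* replicate 1 just below wild-type replicate 2. In the 250 bases searched across the whole set, *PSAD1* has a match to GATAAG and *PSAD2* has no match to any motif. The 150 bases before the starts of the PSAD genes, chr4:1230165-1230314 (minus strand) and chr1:754263-754412 (minus strand) of TAIR10.1, are shown as the subunit pair that differed most, and these shorter windows hold none of the motifs searched:
PSAD1: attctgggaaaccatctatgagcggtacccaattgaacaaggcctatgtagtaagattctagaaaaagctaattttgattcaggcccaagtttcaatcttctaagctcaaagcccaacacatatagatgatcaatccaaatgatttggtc
PSAD2: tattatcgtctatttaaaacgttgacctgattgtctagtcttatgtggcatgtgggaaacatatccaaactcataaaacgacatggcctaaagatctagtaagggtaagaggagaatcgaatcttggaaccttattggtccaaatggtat

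On the lumenal side, *PSAF* (AT1G31330) and *PSAN* (AT5G64040) take part in docking plastocyanin. *PSAN* was at 1328, 1201 and 1315 CPM in wild-type and 690.3, 532 and 542 CPM in *ref4-3* plants (log2 fold change -1.12, SE 0.15, edgeR adjusted p = 0.00552), the largest fall of the subunit genes. *PSAF* was at 4193, 3718 and 3429.6 CPM in wild-type and 2647, 2079 and 2068 CPM in *ref4-3* plants (log2 fold change -0.74, SE 0.17, edgeR adjusted p = 0.0227). At the edges of the complex, *PSAG* (AT1G55670) and *PSAK* (AT1G30380) lie near the antenna. *PSAG* was at 2317, 2209 and 2006 CPM in wild-type and 1416, 1264 and 1162 CPM in *ref4-3* plants (log2 fold change -0.77, SE 0.14, edgeR adjusted p = 0.0137), while *PSAK* had a log2 fold change of -0.48 (SE 0.15, edgeR adjusted p = 0.0567) and passed by the edgeR exact test, DESeq2 and limma-voom, with organelle genes left out and without *ref4-3* replicate 1 (adjusted p = 0.0116 to 0.0491). In each of these genes all *ref4-3* libraries lay below all wild-type libraries. The span of *PSAG* is overlapped over 61.4% by AT1G55673 on the opposite strand, which had 30 to 67 counts.

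The site where the major antenna docks in state transitions is formed by PSAH, *PSAL* (AT4G12800) and *PSAO* (AT1G08380). *PSAH2* (AT1G52230) was at 912, 818 and 811 CPM in wild-type and 543, 399 and 421 CPM in *ref4-3* plants (log2 fold change -0.90, SE 0.16, edgeR adjusted p = 0.0113), and its paralog *PSAH1* (AT3G16140) was at 628, 632 and 473 CPM in wild-type and 406, 353 and 378 CPM in *ref4-3* plants (log2 fold change -0.61, SE 0.15, edgeR adjusted p = 0.0331). Both were separate between genotypes. *PSAL* was at 2898, 2823 and 2046 CPM in wild-type and 1627, 1456 and 1425 CPM in *ref4-3* plants (log2 fold change -0.78, SE 0.17, edgeR adjusted p = 0.0222). *PSAO* was at 2802, 2579 and 2601 CPM in wild-type and 2143, 1556 and 1585 CPM in *ref4-3* plants (log2 fold change -0.60, SE 0.17, edgeR adjusted p = 0.0443), with the highest *ref4-3* library below the lowest wild-type library in both. The calls of the photosystem I subunit genes changed when single libraries were left out. Over all genes tested, 2.33% fell without *ref4-3* replicate 3 and 4.3% without *ref4-3* replicate 2, against 11.9% with all libraries. Without *ref4-3* replicate 3, 7 of the 8 calls were lost (edgeR adjusted p = 0.0628 to 0.156), *PSAN* being the exception. Without *ref4-3* replicate 2, 6 calls were lost (0.0555 to 0.142). *PSAF*, *PSAH1*, *PSAL* and *PSAO* also lost theirs without wild-type replicate 1 or 2 or with library totals, *PSAH1* also without *ref4-3* replicate 1 and *PSAO* without wild-type replicate 3, with no filter beyond 1 count (edgeR adjusted p = 0.0505) or with at least 10 counts in every library (0.0617).

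In photosystem II, 7 of 11 subunit genes fell, where 11.9% of all genes tested fell. PSBO, PSBP and PSBQ form the lumenal shield of the oxygen-evolving complex. Both PSBO genes were among those that did not pass the test. *PSBO1* (AT5G66570) was at 5287, 4661 and 4229.8 CPM in wild-type and 4449, 3662 and 3521 CPM in *ref4-3* plants (log2 fold change -0.29, SE 0.17, edgeR adjusted p = 0.237), and *PSBO2* (AT3G50820) was at 907, 881 and 707 CPM in wild-type and 785, 710.1 and 635 CPM in *ref4-3* plants (log2 fold change -0.23, SE 0.15, edgeR adjusted p = 0.303). Their genotypes overlapped, and with library totals in place of TMM factors the log2 fold change of *PSBO2* was 0.01. *PSBP1* (AT1G06680) was at 4236, 3638 and 4055 CPM in wild-type and 2923, 2273 and 2283 CPM in *ref4-3* plants (log2 fold change -0.67, SE 0.16, edgeR adjusted p = 0.0281). *PSBQ1* (AT4G21280) was at 995, 1016 and 749 CPM in wild-type and 472, 428 and 392.4 CPM in *ref4-3* plants (log2 fold change -1.09, SE 0.16, edgeR adjusted p = 0.00734), and *PSBQ2* (AT4G05180) was at 2263, 2113 and 2179 CPM in wild-type and 1271, 1007 and 1041 CPM in *ref4-3* plants (log2 fold change -0.98, SE 0.15, edgeR adjusted p = 0.0072). For these last 3 genes no *ref4-3* library reached a wild-type library.

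Of the small subunits of photosystem II, 4 fell. *PSBY* (AT1G67740) was at 674, 682 and 489 CPM in wild-type and 345, 256 and 259 CPM in *ref4-3* plants (log2 fold change -1.1, SE 0.19, edgeR adjusted p = 0.0108). *PSBW* (AT2G30570), needed for supercomplexes of photosystem II with its antenna, was at 2284, 1990.0 and 1965 CPM in wild-type and 1215, 1063 and 1045 CPM in *ref4-3* plants (log2 fold change -0.91, SE 0.14, edgeR adjusted p = 0.00806). Both genes were separate between genotypes, as were *PSBX* (AT2G06520) and *PSBTN* (AT3G21055). *PSBX* was at 2048, 1501 and 1349 CPM in wild-type and 1126, 1033 and 998 CPM in *ref4-3* plants (log2 fold change -0.63, SE 0.18, edgeR adjusted p = 0.0471), and *PSBTN* was at 918, 869.8 and 779.7 CPM in wild-type and 641, 511 and 572 CPM in *ref4-3* plants (log2 fold change -0.57, SE 0.14, edgeR adjusted p = 0.0308). *PSBR* (AT1G79040), a subunit tied to oxygen evolution, had a log2 fold change of -0.57 (SE 0.18, edgeR adjusted p = 0.0597) with separate groups, and passed by the edgeR exact test and DESeq2 (adjusted p = 0.0322 and 0.0118).

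*PSBS* (AT1G44575) codes for the antenna-related protein that senses lumen acidification and switches on the dissipation of excess light as heat. Its levels were 822, 733 and 609.7 CPM in wild-type and 761, 710.4 and 615 CPM in *ref4-3* plants (log2 fold change -0.05, SE 0.16, edgeR adjusted p = 0.827). The 6 values overlapped throughout, and the log2 fold change turned to between 0.02 and 0.19 under 4 of the 16 alternatives. Among the 7 photosystem II subunit genes that fell, *PSBP1*, *PSBX*, *PSBY* and *PSBTN* lost the call without *ref4-3* replicate 3 (edgeR adjusted p = 0.0604 to 0.154). *PSBP1*, *PSBX* and *PSBTN* also lost it without *ref4-3* replicate 2, without wild-type replicate 1 or 2, or with library totals, and *PSBX* without *ref4-3* replicate 1 or with at least 10 counts in every library (0.0766 and 0.0666).

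Ratios of paralogs within a library need no scaling between libraries. They were compared for 10 pairs with an exact permutation test over the 6 libraries, two-sided, whose smallest possible p is 0.1. The libraries of the genotypes did not overlap in 6 pairs (exact p = 0.1, adjusted p = 0.167 over the 10 pairs), which is the limit of this design. *LHCB1.4* counts were 0.352, 0.360 and 0.371 in wild-type and 0.157, 0.144 and 0.155 in *ref4-3* plants times those of *LHCB1.5*, a difference of -1.25 on the log2 scale. For *LHCB4.1* over *LHCB4.2* the ratios were 1.73, 2.12 and 1.67 in wild-type and 2.96, 4.13 and 4.15 in *ref4-3* plants, a difference of 1.02. For *PSAD1* over *PSAD2* they were 2.3, 2.55 and 2.97 in wild-type and 4.12, 4.66 and 4.87 in *ref4-3* plants, a difference of 0.81. No *ref4-3* ratio lay within the wild-type range in any of these pairs.

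The other 3 separate pairs moved less. The log2 ratio differed by -0.31 for *LHCB4.1* over *LHCB4.3*, by -0.17 for *LHCB2.1* over *LHCB2.2* and by 0.17 for *LHCB2.2* over *LHCB2.3*. The ratios overlapped between genotypes for *PSAE1* over *PSAE2* (difference 0.02, exact p = 0.6), *PSAH1* over *PSAH2* (0.31, exact p = 0.2), *PSBO1* over *PSBO2* (-0.06, exact p = 0.4) and *PSBQ1* over *PSBQ2* (-0.10, exact p = 0.6). *LHCB1.4* and *LHCB1.5* are 91.4% identical over 806 bases with a run of 122 identical bases, so the split of counts between them is uncertain. In contrast, *LHCB4.1* and *LHCB4.2* share runs of at most 23 bases and the PSAD genes at most 35.

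**Figure D4:**
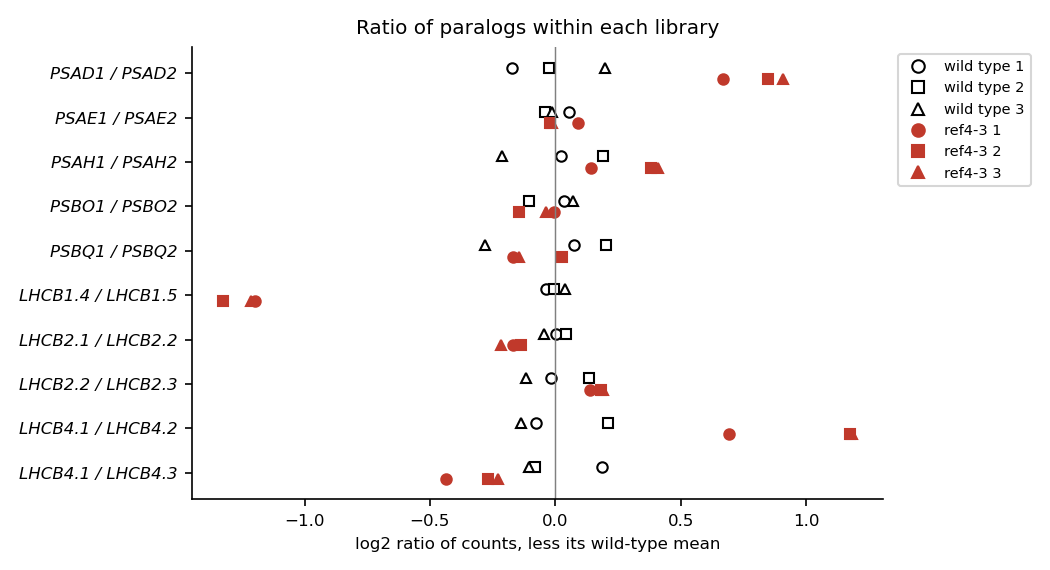
Log2 ratio of the counts of 10 paralog pairs in each library, less the mean of the 3 wild-type libraries (the line at 0); open symbols are wild-type and filled symbols ref4-3 libraries. In ref4-3 libraries LHCB1.4 over LHCB1.5 is at -1.25 on average, and LHCB4.1 over LHCB4.2 and PSAD1 over PSAD2 are at 1.02 and 0.81.

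The 250 bases before the annotated start were searched on both strands for the G-box CACGTG, the I-box GATAAG, the element CCAATC, the evening element core AATATCT and the TATA box TATAAA, in the 44 members and in all 27443 nuclear protein-coding genes of the annotation. CCAATC was found in 10 of 21 antenna promoters (47.6%), in 1 of 23 subunit promoters (4.35%) and in 10.2% of all promoters. CACGTG was found in 10 of 44 members (22.7%) and 6.49% of all promoters. GATAAG was found in 9 members (20.5%, against 12.3%), AATATCT in 5 (11.4%, against 10%) and TATAAA in 19 (43.2%, against 47.3%). Of the 10 antenna genes with CCAATC, 9 fell, with a median log2 fold change of -1.30, and of the 11 without it 6 fell, with a median of -0.94. Over all genes tested, 11.9% fell. The genes without it include *LHCA5*, *LHCA6*, *LHCB4.3* and *LHCB7*, at 111, 69.4, 50.9 and 14.4 CPM on average in wild-type plants, which did not pass the test. The lowest gene with it, *LHCB2.3*, averaged 436 CPM, so the 2 groups also differ in level. Whether the motif goes with the fall was not tested. *LHCB1.4*, with the largest fall, has no match to any of these letters in its window. A match is a description of the letters only.

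Other genes of the pathway were described from lists chosen with earlier results of these data known. *GLK1* (AT2G20570) and *GLK2* (AT5G44190) code for transcription factors that activate nuclear photosynthesis genes. *GLK2* was at 87.1, 51.9 and 40.7 CPM in wild-type and 28.0, 19.7 and 15.5 CPM in *ref4-3* plants (log2 fold change -1.51, SE 0.32, edgeR adjusted p = 0.0195), with no overlap, and it lost the call without *ref4-3* replicate 2 or 3 (edgeR adjusted p = 0.0683 and 0.081). *GLK1* was at 194, 167 and 98.3 CPM in wild-type and 102, 89.6 and 81.5 CPM in *ref4-3* plants (log2 fold change -0.75, SE 0.24, edgeR adjusted p = 0.0658), with *ref4-3* replicate 1 above wild-type replicate 3. It passed by the edgeR exact test and DESeq2, with no filter beyond 1 count and without wild-type replicate 3 (adjusted p = 0.0129 to 0.0411).

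Relatives of the antenna proteins went in both directions. Of 8 such genes, 2 rose and 1 fell, where 8.52% of all genes tested rose and 11.9% fell. *ELIP1* (AT3G22840), an early light-induced protein gene that is switched on under light stress, was at 2.60, 2.08 and 2.06 CPM in wild-type and 63.2, 43.3 and 36.6 CPM in *ref4-3* plants (log2 fold change 4.40, SE 0.25, edgeR adjusted p = 0.00031), or 21.1-fold higher. Every *ref4-3* library was far above every wild-type library, and the call was kept under all 16 alternatives. *ELIP2* (AT4G14690) was at 0.952, 0.799 and 0.578 CPM in wild-type and 2.59, 1.92 and 1.45 CPM in *ref4-3* plants, from 14 to 30 counts in wild-type and 47 to 89 in *ref4-3* libraries (log2 fold change 1.34, SE 0.32, edgeR adjusted p = 0.0283), and lost the call without any 1 library other than wild-type replicate 1 (edgeR adjusted p = 0.0591 to 0.0839). *LIL3:2* (AT5G47110), whose protein is tied to chlorophyll synthesis, was at 271, 260.2 and 242 CPM in wild-type and 155, 169.5 and 137 CPM in *ref4-3* plants (log2 fold change -0.74, SE 0.13, edgeR adjusted p = 0.0111). Its groups were separate, and without *ref4-3* replicate 3 the adjusted p was 0.0604.

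Among 7 genes for antenna import and phosphorylation, 2 fell and 1 rose (median log2 fold change -0.28), where 11.9% of all genes tested fell and 8.52% rose. *ALB3* (AT2G28800), the translocase that inserts antenna proteins into the thylakoid, was at 434, 427 and 439 CPM in wild-type and 290.5, 292 and 269 CPM in *ref4-3* plants (log2 fold change -0.61, SE 0.11, edgeR adjusted p = 0.0135). *STN7* (AT1G68830), the kinase that phosphorylates the major antenna in state transitions, was at 101, 101 and 86.3 CPM in wild-type and 76.2, 61.0 and 60.8 CPM in *ref4-3* plants (log2 fold change -0.54, SE 0.14, edgeR adjusted p = 0.0339). *CPSRP54* (AT5G03940), a subunit of the particle that carries antenna proteins through the stroma, rose and was at 168, 157 and 157 CPM in wild-type and 239, 216 and 208 CPM in *ref4-3* plants (log2 fold change 0.46, SE 0.12, edgeR adjusted p = 0.0333). None of the 3 genes overlapped between genotypes. *ALB3* and *STN7* lost the call with library totals or without *ref4-3* replicate 2 or 3 (edgeR adjusted p = 0.0511 to 0.136), *STN7* also without wild-type replicate 1 or 2, and *CPSRP54* without any 1 library or with no filter beyond 1 count (0.128).

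Of 15 genes of photosynthetic electron transport and the chloroplast ATP synthase, 4 fell and none rose (median log2 fold change -0.35, against -0.84 for the photosystem genes). Over all genes tested, 11.9% fell and 8.52% rose. Of the 354 genes outside the 44 members with a mean of at least 300 CPM, 24.3% fell. *FD1* (AT1G10960), a ferredoxin, was at 91.7, 87.4 and 59.4 CPM in wild-type and 52.6, 38.5 and 37.6 CPM in *ref4-3* plants (log2 fold change -0.89, SE 0.21, edgeR adjusted p = 0.0257). The ATP synthase delta subunit gene *ATPD* (AT4G09650) was at 512, 496 and 448 CPM in wild-type and 354, 264 and 273 CPM in *ref4-3* plants (log2 fold change -0.71, SE 0.15, edgeR adjusted p = 0.0208), and the gamma subunit gene *ATPC1* (AT4G04640) was at 952, 873 and 758 CPM in wild-type and 587, 545 and 496 CPM in *ref4-3* plants (log2 fold change -0.67, SE 0.14, edgeR adjusted p = 0.0199). Of 9 photosystem assembly genes, 4 fell (median -0.49), against 11.9% of all genes tested. Among those 4, the largest changes were those of *HCF173* (AT1G16720) (-0.69, edgeR adjusted p = 0.0229), which acts in translation of the D1 protein, *CURT1B* (AT2G46820) (-0.54, 0.0409), which bends thylakoid membranes, and *PSB27* (AT1G03600) (-0.53, 0.0373), a photosystem II assembly factor. All 6 named genes lost the call without *ref4-3* replicate 2 or 3, and 5 of them, *FD1* being the exception, with library totals. *FD1*, *CURT1B* and *PSB27* also lost it without wild-type replicate 1 or 2, *HCF173* without wild-type replicate 1, and *CURT1B* with at least 10 counts in every library (edgeR adjusted p = 0.0501 to 0.0965).

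**Figure D5:**
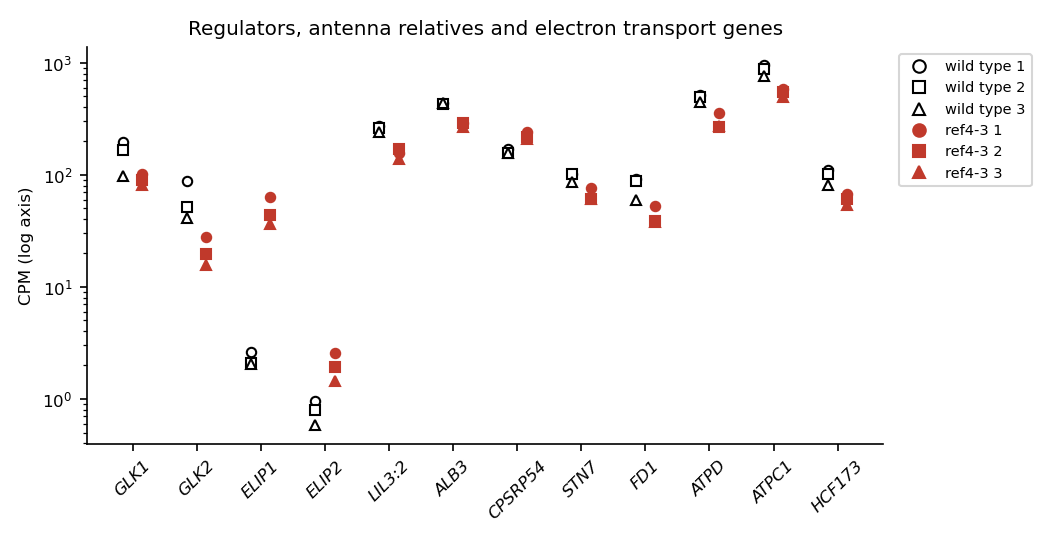
CPM of 12 pathway genes in each library on a log axis, with open symbols for wild-type and filled symbols for ref4-3 libraries. ELIP1 lies at 2.06 to 2.60 CPM in wild-type and 36.6 to 63.2 CPM in ref4-3 plants, while GLK2 lies at 40.7 to 87.1 CPM and 15.5 to 28.0 CPM.

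Markers of rosette leaf were present in every library. Of these, *RCA* (AT2G39730), the gene for Rubisco activase, fell (log2 fold change -1.38, SE 0.22, edgeR adjusted p = 0.00854; without *ref4-3* replicate 3 the call was just lost, at 0.05), while *RBCS1A* (AT1G67090) and *CA1* (AT3G01500) did not pass the test, and the 3 summed to 12886 to 18515 CPM in wild-type and 9011 to 11099 CPM in *ref4-3* plants. Of 6 floral markers, *SEP3* (AT1G24260) was lower and *LFY* (AT5G61850) higher, and they summed to 11.6 to 16.0 CPM against 6.89 to 11.0 CPM. Of 4 epidermis and guard cell markers, *ATML1* (AT4G21750) and *PDF2* (AT4G04890) were lower, *ATML1* not without *ref4-3* replicate 3 (edgeR adjusted p = 0.0605). *FDH* (AT2G26250) and *MYB60* (AT1G08810) did not pass the test (log2 fold change -0.13 and 0.12, edgeR adjusted p = 0.546 and 0.639), and both overlapped between genotypes. The 4 summed to 196.3 to 252.1 CPM against 161.5 to 198.6 CPM. Of 2 phloem markers, *SUC2* (AT1G22710) was higher, and *APL* (AT1G79430) did not pass the test (log2 fold change 0.06, edgeR adjusted p = 0.767). The 2 summed to 87.7 to 140.7 CPM against 164.8 to 194.4 CPM, most of it from *SUC2*. *APL* averaged 17.3 against 18.0 CPM, with overlap. No marker was at 0 counts in all libraries. Over all genes tested, 11.9% fell and 8.52% rose. Calls of *SEP3*, *LFY*, *PDF2* and *SUC2* were each lost without at least 4 single libraries and under 1 or more of the other alternatives. The part of cell type makeup in the changes of the photosystem genes was not tested.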

How the data were processed

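The deposited values are raw whole-number counts per gene and library. From the methods and labels, the authors cleaned paired reads with fastp, aligned these to TAIR10 by HISAT2 2.2.1 and counted Araport11 genes; strand setting and multiply matching reads are not given in the sources used here. Limits from 3 counts cover counting error only. edgeR 4.0.16 was run with filterByExpr (count 10, total 15), TMM factors, the quasi-likelihood test and Benjamini-Hochberg adjustment. Alternatives were edgeR's exact test (the study's choice), DESeq2 1.42.0, limma-voom 3.58.1, other scalings and filters, a replicate block and each library left out. The scripts were tested on simulated data. Paralog log2 ratios used counts plus 0.5. Gene models and sequences came from RefSeq on TAIR10.1, by locus name (36632 of 36796 loci matched, and all 44 members), and transcript similarity from BLAST+ 2.17.0.

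The members and lists were chosen with earlier results of these data known. Members that fell and both genes of each pair are given in every library. From each other list, up to 3 called genes with the largest changes are named, as are *GLK1*, *GLK2*, *ELIP1*, *ELIP2* and some uncalled cell type markers.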

Additional observations from a re-analysis of the deposited data

How the results depend on the processing

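No member rose under any of the 16 alternatives. The count that fell was 28 to 34 under alternative tests, filters and the RLE, member-free TMM and nuclear-only scalings, and 23 with library totals, where 10 passed 2-fold. With 1 library left out, it ranged from 11 to 32 and the count past 2-fold from 9 to 21. The lowest values, 11 and 9, came without *ref4-3* replicate 3, and without *ref4-3* replicate 2 the first was 17. Over all genes tested, 11.9% fell in the main fit and 6.59% with library totals. Without *ref4-3* replicate 3 that share was 2.33%, and without *ref4-3* replicate 2 it was 4.3%. Without a filter 20 members passed 2-fold and the median over all genes was 0.18, with the members at -1.12 relative to it. With library totals the log2 fold change was 0.0075 for *LHCA6*, 0.0272 for *LHCB4.3*, 0.0149 for *PSBO2* and 0.1894 for *PSBS*. That of *PSBS* was 0.0191 with at least 10 counts in every library and ranged from -0.1961 to 0.0263 with 1 library left out. Paralog pairs without overlap numbered 6 to 8. The log2 ratio difference of *PSAE1* over *PSAE2* ranged from -0.0156 to 0.0457, and that of *PSBQ1* over *PSBQ2* from -0.2358 to 0.0057, with 1 library left out. The cause of these shifts was not tested.

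Replicate numbers are shared by both genotypes, but over all genes the deviations of same-numbered libraries correlated at -0.002, -0.12 and 0.164, and over the 44 members at 0.224, 0.149 and 0.064. These did not all exceed 0.1 in either case. The main fit did not take the numbers as pairs, as the study used no replicate block. Over all genes not every library correlated best with its own number, and over the members every library did except *ref4-3* replicate 3. With the replicate number as a block, 31 members fell, 16 past 2-fold, against 2064 of all genes lower and 1298 higher. The block removed the calls of *CPSRP54*, *SEP3*, *LFY* and *SUC2* among the other named genes. All 3 within-number differences had the same sign in 9 of 10 paralog pairs under this pairing.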
